A study of Rattus norvegicus with 10 samples.

Results

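The red cell membrane skeleton was followed through 8 genes, Slc4a1, Ank1, Sptb, Epb41, Epb42, Gypc, Add2 and Dmtn, among 22098 genes that had at least 1 array cluster annotated to their symbol alone. RNA came from plasma exosomes, small vesicles that cells shed into body fluids, of 10 male Wistar rats. Their age was not stated in the labels. In 5 rats remote ischemic conditioning (RIC) had been applied as 4 cycles of 5 min ischemia and 5 min reperfusion, and 5 were healthy controls. The labels name neither the limb or organ made ischemic nor the interval to the blood draw, and the treatment text is the same for all animals, so group membership rests on titles and condition labels. Blood was venous, 10 mL in EDTA per animal, vesicles were pelleted by differential centrifugation, and RNA was hybridised to an Affymetrix whole-transcriptome array.

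Each gene was chosen by name, and the list was drawn up after Slc4a1 had been seen to be higher in RIC. The group difference of Slc4a1 is therefore a description and carries no test here, and the differences of the other genes are given in the same way. Each of the 8 genes had exactly 1 cluster, the unit that groups the probes of a transcribed region, so no choice between clusters was needed. Values are log2 signal as deposited. Background was judged from olfactory and vomeronasal receptor clusters, whose median was 4.01 and whose 95th percentile was 4.38. All 8 genes had a mean above that percentile. No filter on low values was applied. Of 6 exosome markers looked up after values were seen (Cd9, Cd63, Cd81, Sdcbp, Tsg101 and Pdcd6ip), 6 exceeded it as well.

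The red cell membrane is held in shape by a net of spectrin tetramers that lies under the lipid bilayer. The net is tied to the membrane at one kind of site by ankyrin, which grips the anion exchanger band 3, and at the actin junctions by protein 4.1, which binds glycophorin C. Adducin and dematin cap and bundle the short actin filaments at those junctions. Maturing reticulocytes shed membrane in vesicles, and the mature red cell makes no new RNA. Many of these genes are under erythroid control by GATA1, which binds GATA sites, and KLF1, which binds CACCC boxes.

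Promoter windows show which of these letters sit near the annotated starts of the genes. RefSeq sequence (build GRCr8, 250 bases before to 50 after a transcript start) was on hand for 5 of the 8 genes, and the 4 below were picked to set Add2 and Epb42, which varied with Slc4a1 between rats, and Sptb, which did so mainly through 1 rat, beside Epb41. They are written 5′ to 3′ on the gene's strand, with capitals marking CACCC and GATA words on either strand. A GATA word was GATA with A or T before it and A or G after it, and no GATA word overlapped a CACCC word.
Sptb, chr6:101170229-101170528, minus strand: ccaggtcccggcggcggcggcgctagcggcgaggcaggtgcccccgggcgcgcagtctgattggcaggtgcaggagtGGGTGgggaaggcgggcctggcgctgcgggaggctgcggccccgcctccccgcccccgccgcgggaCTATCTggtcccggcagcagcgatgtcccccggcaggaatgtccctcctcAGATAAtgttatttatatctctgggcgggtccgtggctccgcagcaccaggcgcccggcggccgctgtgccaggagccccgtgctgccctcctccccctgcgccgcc
Epb42, chr3:128451634-128451933, minus strand: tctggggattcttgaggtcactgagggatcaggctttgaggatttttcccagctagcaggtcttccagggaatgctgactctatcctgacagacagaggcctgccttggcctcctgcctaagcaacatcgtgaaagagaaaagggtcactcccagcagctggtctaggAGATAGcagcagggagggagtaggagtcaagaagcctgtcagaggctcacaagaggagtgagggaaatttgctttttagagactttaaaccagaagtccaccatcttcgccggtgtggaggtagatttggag
Add2, chr4:120054628-120054927, plus strand: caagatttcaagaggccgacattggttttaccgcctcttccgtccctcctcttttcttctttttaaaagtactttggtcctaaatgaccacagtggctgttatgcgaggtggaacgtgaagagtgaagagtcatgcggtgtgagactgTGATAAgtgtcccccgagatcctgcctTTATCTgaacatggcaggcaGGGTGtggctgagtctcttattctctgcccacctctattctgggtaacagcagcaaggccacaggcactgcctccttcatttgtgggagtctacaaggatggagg
Epb41, chr5:149521944-149522243, minus strand: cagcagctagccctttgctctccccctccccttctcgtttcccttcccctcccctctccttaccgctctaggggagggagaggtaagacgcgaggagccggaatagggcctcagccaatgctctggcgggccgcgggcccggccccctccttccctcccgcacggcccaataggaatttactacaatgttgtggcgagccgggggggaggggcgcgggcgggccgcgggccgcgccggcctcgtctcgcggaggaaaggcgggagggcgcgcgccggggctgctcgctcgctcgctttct
The Sptb window held 2 GATA words, which begin at -107 and -57 from the start, and 1 CACCC word at -173. In Add2 there were 2 GATA words at -102 and -75 and 1 CACCC word at -55, and in Epb42 1 GATA word at -82 and no CACCC word. The Epb41 window held neither, and that of Gypc held 3 GATA words, 2 of which overlap by a base, and 2 CACCC words. Yet Gypc, whose window is not printed, did not vary with Slc4a1 between rats (r = -0.02 of deviations from group means). Of 33469 rat promoter windows of this length, 30.3% held a GATA word and 54.9% a CACCC word, so a match is common. The transcript starts used for Epb41 and Add2 lay 26185 and 52901 bases from the outer edge of the annotated gene, so other starts of these genes were not covered. Slc4a1, Ank1 and Dmtn were not analysed for sequence here.

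Slc4a1 encodes band 3, which exchanges chloride for bicarbonate and anchors the skeleton. Its cluster (TC1000003864.rn.1) read 7.04, 6.65, 6.84, 7.37 and 6.54 in control samples 1 to 5 and 7.48, 8.28, 7.03, 9.64 and 7.48 in RIC samples 1 to 5. In 4 of 5 RIC rats the value lay above the highest control, while RIC sample 3 lay within the control range, so the groups overlapped. Means were 7.98 ± 1.03 in RIC and 6.89 ± 0.33 in control (SD, n = 5 each), a log2 difference of 1.09 (SE 0.45), or 2.13-fold. RIC sample 4 was the highest of all 10 arrays, and without it the difference was 0.68, or 1.6-fold.

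**Figure D1:**
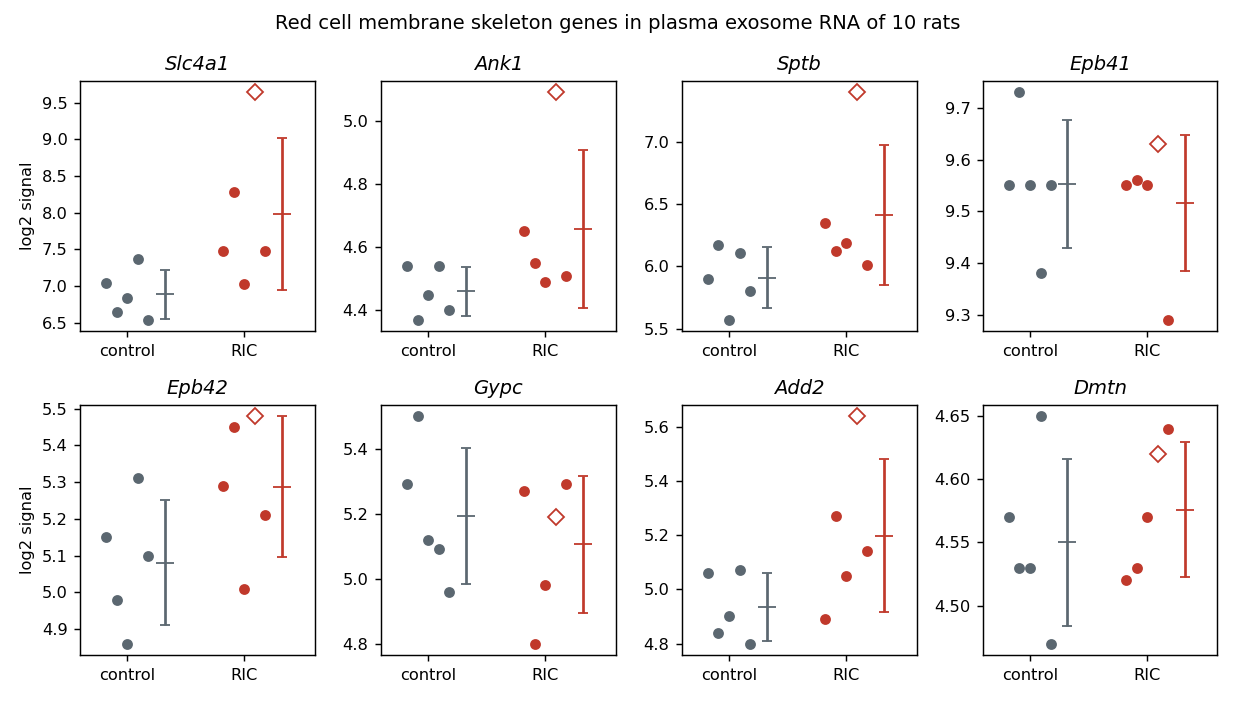
Deposited log2 signal of the 8 genes in each rat, with a panel and a separate vertical scale per gene (grey, control; red, RIC; open diamond, RIC sample 4; bar, mean and SD, n = 5 each). RIC sample 4 is the highest of 10 points for Slc4a1, Ank1, Sptb, Epb42 and Add2, and in all 8 panels the groups overlap.

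The linkers that join band 3 to spectrin had differences of smaller size. Ank1 encodes ankyrin-1, and its cluster (TC1600001903.rn.1) read 4.54, 4.37, 4.45, 4.54 and 4.40 in the controls and 4.65, 4.55, 4.49, 5.09 and 4.51 in RIC. The mean was 4.66 ± 0.25 in RIC and 4.46 ± 0.08 in control (SD, n = 5 each), a log2 difference of 0.20, and 0.09 without RIC sample 4. Apart from RIC sample 4, these values lay close to the receptor 95th percentile. Array signal may compress differences there, which was not tested. Epb42 encodes protein 4.2, a relative of the transglutaminases that has lost their activity and that steadies the bond of band 3 and ankyrin. Its cluster (TC0300004018.rn.1) read 5.15, 4.98, 4.86, 5.31 and 5.10 in the controls and 5.29, 5.45, 5.01, 5.48 and 5.21 in RIC. RIC samples 2 and 4 lay above the highest control and the other RIC samples among the controls. The log2 difference was 0.21, with 5.29 ± 0.19 in RIC and 5.08 ± 0.17 in control (SD, n = 5 each), and 0.16 without RIC sample 4.

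Sptb encodes the beta spectrin of red cells, a building block of the net itself. The cluster (TC0600002697.rn.1) read 5.90, 6.17, 5.57, 6.11 and 5.80 in the controls and 6.35, 6.12, 6.19, 7.40 and 6.01 in RIC. RIC samples 1, 3 and 4 were above the highest control, sample 3 barely so. The mean was 6.41 ± 0.56 in RIC and 5.91 ± 0.24 in control (SD, n = 5 each), a log2 difference of 0.50 or 1.42-fold, which came to 0.26 or 1.2-fold without RIC sample 4.

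The proteins of the actin junctions did not share a single pattern. Add2, for beta adducin, which caps the fast-growing end of actin filaments, read 5.06, 4.84, 4.90, 5.07 and 4.80 in the controls and 4.89, 5.27, 5.05, 5.64 and 5.14 in RIC (cluster TC0400001305.rn.1). RIC samples 2, 4 and 5 exceeded all controls, and the log2 difference was 0.26, or 0.15 without RIC sample 4. Dmtn encodes dematin, an actin-bundling protein, and its cluster (TC1500002000.rn.1) ranged from 4.47 to 4.65 in control and from 4.52 to 4.64 in RIC. Its log2 difference was 0.03, with 4.58 ± 0.05 in RIC and 4.55 ± 0.07 in control (SD, n = 5 each), and it was -0.04 after each array was centred on its median. The ranges of the 2 groups coincided almost entirely.

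Epb41 and Gypc, which together form the second anchor of the net, had means lower in RIC by less than their spread. Epb41, for protein 4.1, read 9.55, 9.73, 9.55, 9.38 and 9.55 in the controls and 9.55, 9.56, 9.55, 9.63 and 9.29 in RIC (cluster TC0500003739.rn.1). The same value, 9.55, stood on 5 of 10 arrays, which only 2.28% of the 67405 varying clusters matched with 5 or more equal values, and such a plateau can hide differences. Its log2 difference was -0.04 in the deposited values and 0.25 after quantile normalization was repeated. Gypc, for glycophorin C, read 5.29, 5.50, 5.12, 5.09 and 4.96 in the controls and 5.27, 4.80, 4.98, 5.19 and 5.29 in RIC (cluster TC1800001197.rn.1). Its log2 difference was -0.09, with 5.11 ± 0.21 in RIC and 5.19 ± 0.21 in control (SD, n = 5 each). It was 0.05 when control samples 1 and 2 were left out.

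Taken as a list, 6 of 8 genes had a higher mean in RIC, beside 60.0% of all 68842 clusters, with a median log2 difference of 0.20 beside 0.03 over all clusters. Among the 21115 varying clusters above the receptor 95th percentile, as these 8 are, 8184 were higher in RIC and the median was -0.04. Centring on the array median or on the receptors moved the median over all clusters to -0.03 or -0.06 (-0.055). The same centrings gave 5 of 8 genes higher and a list median of 0.14 or 0.12. Without centring, leaving out RIC sample 4 kept the count at 6 and gave a median of 0.12. In limma, fitted on all clusters, 0 of 8 genes had a Benjamini-Hochberg adjusted p under 0.05, as had 0% of all clusters. At an unadjusted p under 0.05 there was 1 of 8, Slc4a1 itself, beside 11.1% of all clusters. All 5 RIC rats lay above all 5 controls for 0 of 8 genes, beside 1.27% of clusters. Since Slc4a1 was picked on this contrast, nothing is read from these counts. A larger contribution of red cell vesicles to the plasma and more RNA per vesicle cannot be told apart in such samples.

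**Figure D2:**
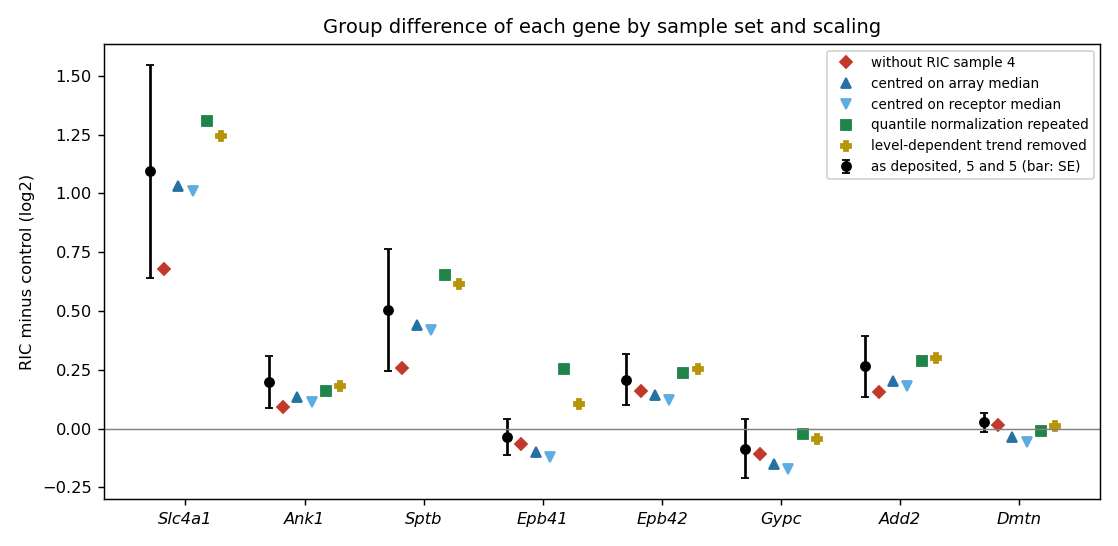
RIC minus control difference of each gene in log2 units, as deposited with its SE (black, 5 rats a group), without RIC sample 4 (red diamonds) and under 4 other scalings of the arrays. Slc4a1, Ank1, Sptb, Epb42 and Add2 stay above 0 throughout, from 0.68 to 1.31 for Slc4a1, while Epb41 and Dmtn change sign with the scaling.

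A single animal stood out across the list. RIC sample 4 had the highest value of the 10 arrays in 5 of 8 genes, while it was the highest in 8.71% of all varying clusters. Control sample 2 was the highest for Epb41 and Gypc and control sample 4 for Dmtn. The lead of RIC sample 4 over the mean of the other 4 RIC rats was 2.07 log2 units for Slc4a1, 1.23 for Sptb and 0.54 for Ank1. It was 0.55 for Add2 and 0.24 for Epb42. RIC sample 4 was also highest in 12 of 25 other erythroid genes that varied, and in 4 of 11 lymphocyte, 3 of 10 monocyte and 4 of 14 neutrophil genes. It was highest in 2 of 13 platelet and 3 of 27 membrane partner genes, and in 0 of 22 paralogues and 0 of 10 endothelial genes. The lists were not tested against one another.

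Likeness to Slc4a1 was then measured within groups, so that the group difference played no part. Pearson r was taken between deviations from the group means over the 10 arrays, for 9355 other genes above the receptor 95th percentile that varied. The median r was 0.06 and the 95th percentile 0.56. Add2 ranked 5 of 9355 with r = 0.92, Ank1 13 with 0.90, Sptb 78 with 0.78 and Epb42 119 with 0.74. Dmtn ranked 1158 with 0.40, Epb41 3097 with 0.18 and Gypc 5740 with -0.02. These are descriptions over arrays that share the same high sample. RIC sample 4 was then left out of the correlation, but the group means subtracted still included it. The other RIC rats thus kept a shared offset, and the influence of that rat was not fully removed. On this measure the 95th percentile was 0.50, and r was 0.81 for Add2, 0.77 for Epb42 and 0.67 for Ank1. It was 0.32 for Sptb, 0.31 for Dmtn, -0.16 for Epb41 and -0.25 for Gypc. Add2, Epb42 and Ank1 lay beyond the 95th percentile on both measures, and Sptb only with that rat in the correlation. Values with RIC sample 4 taken out of the group mean as well were not computed.

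**Figure D3:**
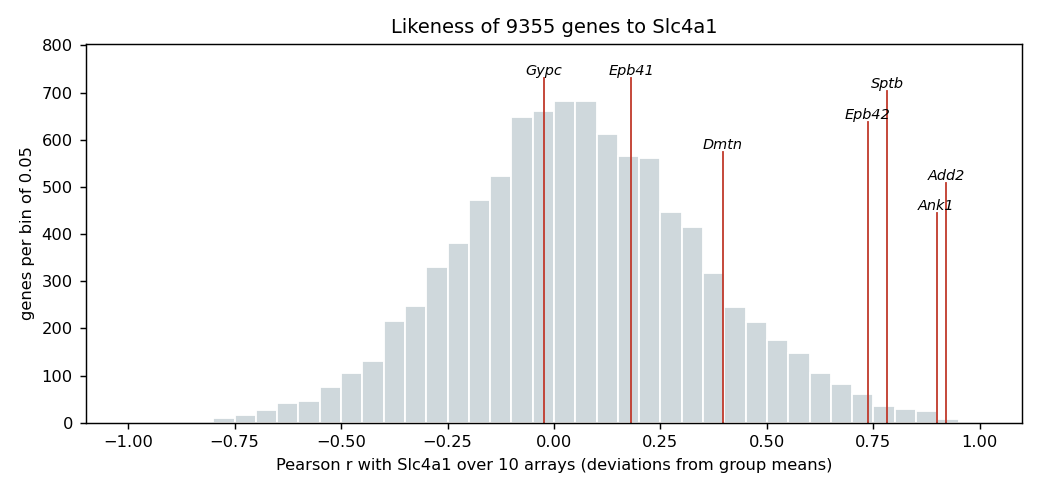
Number of genes by their Pearson r with Slc4a1 over 10 arrays, computed on deviations from group means for 9355 genes (grey bars, 0.05 wide), with the other 7 skeleton genes as red lines. Add2, Ank1, Sptb and Epb42 lie at 0.74 to 0.92, beyond the 95th percentile of 0.56, and Gypc, Epb41 and Dmtn lie below it.

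Over the 10 values themselves, group difference included, Slc4a1 and Ank1 had r = 0.92 and Spearman's rho = 0.92, Add2 0.95 and 0.85, Epb42 0.82 and 0.88, and Sptb 0.85 and 0.55. With RIC samples 2 and 4 left out, the rats farthest from the median of Slc4a1, r was 0.86 for Ank1, 0.73 for Epb42, 0.70 for Dmtn, 0.69 for Add2 and 0.49 for Sptb. It was 0.12 for Gypc and -0.70 for Epb41, so the order of the genes shifted with the rats kept. Over all 10 values Dmtn had r = 0.45 and rho = 0.44, Epb41 0.04 and 0.02, and Gypc -0.16 and -0.02. No p is given, since the genes were chosen with results known.

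The 5 genes nearest to Slc4a1 by the within-group measure were Slfn14 (r = 0.96), Fech (0.96), Slc25a37 (0.93), Alas2 (0.93) and Add2. Slfn14 encodes an endoribonuclease known from rabbit reticulocytes, Fech the ferrochelatase that inserts iron into heme, and Slc25a37 the mitochondrial iron carrier mitoferrin-1. Alas2 encodes the enzyme that begins heme synthesis in red cell precursors. Of the 100 genes ranked highest, 89 had their top value in RIC sample 4. Their median group difference was 0.08, and 0 of 100 had a difference as large as that of Slc4a1.

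Slc4a1 and Fech varied together from rat to rat, yet along separate lines in the groups. Fech read 9.14, 8.19, 8.85, 9.07 and 7.95 in the controls and 7.90, 8.73, 7.49, 9.85 and 7.85 in RIC, a log2 difference of -0.28. Slc4a1 minus Fech was -2.10, -1.54, -2.01, -1.70 and -1.41 in the controls and -0.42, -0.45, -0.46, -0.21 and -0.37 in RIC. All 5 RIC rats lay above all 5 controls on this distance, including RIC sample 3, and RIC sample 4 was again the highest of the 10. The mean distance differed by 1.37 log2 units (-0.38 ± 0.10 in RIC, -1.75 ± 0.30 in control, SD, n = 5 each), or 2.58-fold. It was 1.33 without RIC sample 4. It ran from 1.28 to 1.46 over the alternatives that can move such a distance, which were repeated quantile normalization, removal of the trend, array weights and samples left out.

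**Figure D4:**
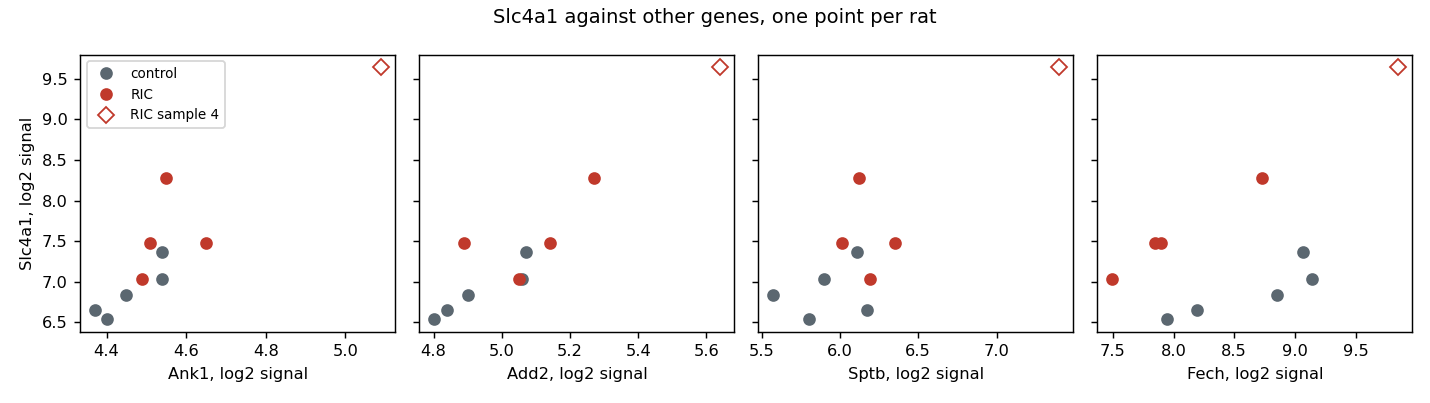
Log2 signal of Slc4a1 (vertical) against Ank1, Add2, Sptb and Fech (horizontal), with a point per rat (grey, control; red, RIC; open diamond, RIC sample 4). Against Fech the 5 RIC rats form a line above the 5 controls, with distances of -0.46 to -0.21 in RIC and -2.10 to -1.41 in control.

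A distance within an array is free of shifts shared by the whole array, but shows only that the signals of the pair moved unequally. Slc4a1 minus Slfn14 also separated the groups, from 0.41 to 1.10 in control and from 1.15 to 2.85 in RIC. The distances to Slc25a37, Alas2 and Add2 overlapped, with group differences of 0.84, 0.92 and 0.83, which came to 0.52 (0.515), 1.03 and 0.53 without RIC sample 4. Among the skeleton genes the distance of Slc4a1 differed by 0.59 against Sptb, 0.90 against Ank1 and 0.89 against Epb42, and by 1.07 to 1.18 against Dmtn, Epb41 and Gypc. The groups overlapped in each of these 6. Without RIC sample 4 the distance differed by 0.42 against Sptb, 0.59 against Ank1, 0.52 against Epb42, 0.66 against Dmtn, 0.74 against Epb41 and 0.79 against Gypc. Over all 9355 genes, 8.22% gave a distance from Slc4a1 that separated the groups in this direction, and 21 of the 100 nearest did. The difference of Slc4a1 was used to choose the list, so no test is attached.

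Genes of proteins that sit with the skeleton in the membrane mostly had lower means in RIC, unlike Slc4a1. So did most varying clusters above the receptor 95th percentile. Of 35 partner genes listed, 30 were measured, 26 of them above that percentile, and 27 varied. Of the 27, 7 were higher and 20 lower in RIC, with a median log2 difference of -0.07. Among the 21115 varying clusters above the percentile, 8184 were higher and 12820 lower, with a median of -0.04. None of the 27 had a limma adjusted p under 0.05, beside 0% of all clusters. At an unadjusted p under 0.05 there were 0 of 27, beside 11.1% of all clusters. Rhag, for the Rh-associated glycoprotein of the ankyrin complex, read 10.63, 12.18, 10.67, 11.65 and 13.62 in the controls and 9.43, 11.18, 11.21, 11.69 and 8.67 in RIC. Its log2 difference was -1.31 (SE 0.75), opposite in sign to that of Slc4a1, with overlapping groups (limma adjusted p = 0.526). Cd47, a surface protein that protects red cells from engulfment, had 8.40 ± 0.19 in RIC and 8.51 ± 0.08 in control (SD, n = 5 each). Aldoa, for the glycolytic enzyme aldolase, which in human red cells docks on band 3, sat at 8.25 on 9 of 10 arrays and could show no difference. Rhd, Kcnn4 and Kel were named after their values were seen. Their within-group r with Slc4a1 was 0.80, 0.77 and 0.58, beyond the 95th percentile of 0.56, while the other ranked partners lay below it. These r include RIC sample 4, the highest array for Rhd and Kcnn4.

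Paralogues of the skeleton genes that serve other tissues were close to even. Of 22 measured, 11 were higher and 10 lower in RIC, with a median log2 difference of 0.00 (0.002), and 9 of 22 exceeded the receptor 95th percentile. None had an adjusted or an unadjusted limma p under 0.05, beside 0% and 11.1% of all clusters. Sptbn1, for the beta spectrin of non-erythroid cells, read 17.39 or 17.41 on 8 arrays and 16.98 and 16.96 in RIC samples 1 and 5. Its log2 difference was -0.18, beside 0.50 for red cell Sptb, and the difference between the 2 genes was not tested. Sptbn1 stood at 17.39 on 6 of 10 arrays, and such a plateau can hide differences, while Sptb had none. Sptan1, for a spectrin of non-erythroid cells as well, had 8.45 ± 0.49 in RIC and 8.97 ± 0.80 in control (SD, n = 5 each). Tgm2, an active transglutaminase related to Epb42, had 6.02 ± 0.19 against 6.25 ± 0.47.

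Other erythroid genes that varied were split. Of 29 measured, 25 varied. The others were globin genes, which could show no difference. Hba-a1, Hbb-bs and Hbb-b1 stood at 19.93, the highest value deposited, on all 10 arrays, and Hbb stood at 7.63. Of the 25, 13 were higher and 12 lower in RIC, or 11 and 14 without RIC sample 4. Their median log2 difference was 0.02. None had a limma adjusted p under 0.05, while 2 higher and 1 lower of the 25 had an unadjusted p under 0.05, beside 11.1% of all clusters. Car1, for the carbonic anhydrase that makes the bicarbonate that band 3 exports, had 8.07 ± 1.03 in RIC and 6.52 ± 0.36 in control (SD, n = 5 each; limma adjusted p = 0.376). Slc25a37 lay higher in all 5 RIC rats (5.13 to 5.62) than in all 5 controls (4.93 to 5.06), with a log2 difference of 0.25 (limma adjusted p = 0.399). Such separation was found for 2 of 25 genes, beside 1.27% of clusters, the other being Car2, a further carbonic anhydrase named after its values were seen (8.25 to 9.59 against 7.74 to 8.21). Bcl2l1, for a protein that guards erythroid precursors from cell death, had a log2 difference of -0.14 (limma adjusted p = 0.397). Alas2 and Ahsp, for the chaperone of alpha globin, had log2 differences of 0.18 and 0.94 that came to -0.35 and 0.34 without RIC sample 4. Cat, for catalase, had -0.27.

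**Figure D5:**
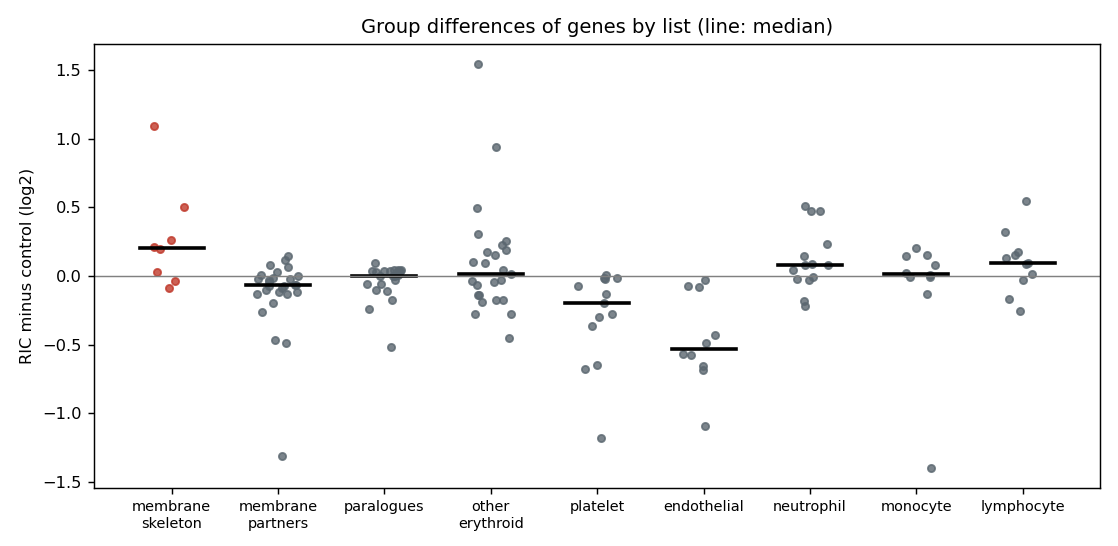
RIC minus control difference of each varying gene in log2 units by list (points; sideways scatter has no meaning), with the list's median as a black line and the 8 skeleton genes in red. The skeleton list has a median of 0.20, membrane partners -0.07, paralogues 0.00, other erythroid genes 0.02, platelet genes -0.19 and endothelial genes -0.53.

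Markers of other cells that shed vesicles moved as follows beside these genes. Platelet genes exceeded the receptor 95th percentile in 18 of 18 cases, and 1 of 13 that varied was higher in RIC. Of the 13, Itgb3, Treml1, P2ry12 and Thbs1 each had 1 value in all 5 controls, which no RIC rat exceeded. Such a plateau can hide differences and leaves room only for lower values in RIC. The platelet sample medians ran from 17.14 to 17.86 in control and from 16.05 to 17.86 in RIC. Endothelial genes were higher in 0 of 10, with sample medians of 5.94 to 7.33 in control and 5.58 to 6.15 in RIC. Shares to set beside all counts here are 60.0% of all clusters higher in RIC, and 8184 of the 21115 varying clusters above the receptor 95th percentile. Neutrophil, monocyte and lymphocyte genes were higher in 9 of 14, 6 of 10 and 8 of 11. Their sample medians were 4.27 to 4.55 against 4.40 to 4.64, 5.08 to 5.25 against 5.12 to 5.25, and 4.87 to 5.11 against 5.04 to 5.24. RIC sample 4 had the highest median of 10 arrays for the neutrophil and skeleton lists, and shared the highest for the platelet list with other rats of both groups. It had the lowest median for the endothelial and muscle lists. Its median ranked 6 of 10 for the other erythroid genes, 5 for the monocyte and 2 for the lymphocyte list. None of these markers had a limma adjusted p under 0.05, beside 0% of all clusters. Their part in the values of the skeleton genes was not tested.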

How the data were processed

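The authors deposited log2 values for 68842 transcript clusters on 10 arrays. Per the submitters' processing notes, Affymetrix Expression Console was used. How probes were summarised and normalized, and the genome build, is not stated there. Values ran from 2.71 to 19.93, and 1437 clusters had 1 value on all arrays. Array number limits the precision. Symbols came from the platform annotation, and a cluster with several symbols stood for no gene. The genes and lists were chosen with earlier results of these data known.

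Groups were compared as RIC minus control by linear models with moderated variance (limma 3.58.1, R 4.3.3) over all clusters, with no covariate, Benjamini-Hochberg adjustment and a threshold of 0.05. The step was tested on simulated data. Each array was of another rat, and p-values refer to the spread between those animals. Correlations and distances were computed in Python 3.11.15. Alternatives were 4 scalings (array median, receptor median, repeated quantile normalization, and a lowess trend with a span of 0.3 removed), a filter at the receptor 95th percentile, a trended robust variance, array weights, the replicate number as a block, and samples left out.

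Beside the 8 genes, the rule for naming took from each related list the genes with an unadjusted p under 0.05 above that percentile and 3 of the highest remaining mean, and the 5 genes nearest to Slc4a1. Where a gene had several clusters, that of the highest mean was used. Promoters came from RefSeq, GRCr8.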

Additional observations from a re-analysis of the deposited data

Results flagged for a closer look

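Within groups of 5, some values lay apart from the rest by Dixon's criterion at the 95% level, which chance meets in about 1 of 20 groups. In RIC sample 4, Ank1 read 5.09 with the nearest RIC value at 4.65, Sptb read 7.40 with the nearest at 6.35, and Slc25a37 read 5.62 with the nearest at 5.21. These 3 flags fall on 1 animal. Epb41 in RIC sample 5 read 9.29, with the nearest at 9.55. In control sample 3, Cd47 read 8.37 with the nearest at 8.52, and Aldoa read 8.23 where the other 4 controls stood at 8.25. The flags leave out genes named after their values were seen, and so are not a full count. Among those left out, Car2 read 9.59 in RIC sample 4 with the nearest at 8.58. Kel read 6.06 in control sample 1 with the nearest at 5.33.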

How the results depend on the processing

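All 19 alternatives run gave 0 clusters at a limma adjusted p under 0.05, and between 5 and 8 of the 8 skeleton genes higher in RIC, with a median difference from 0.12 to 0.26. Leaving out each rat in turn gave 6 to 7 genes higher and a median of 0.12 to 0.26, the lowest without RIC sample 4. That omission also moved Slc4a1 to 0.68, Sptb to 0.26, Add2 to 0.15 and Ank1 to 0.09. Epb41 ran from -0.079 to 0.0205 as each rat was left out. It turned to 0.10 with the level-dependent trend removed, 0.25 after repeated quantile normalization, 0.0205 without RIC sample 5, 0.0085 without control sample 2 and 0.0227 without control samples 1 and 2. Gypc turned to 0.0493 without control samples 1 and 2. Dmtn turned to -0.038 after centring on the array median, -0.059 on the receptors and -0.0122 after repeated quantile normalization. The cause of these turns was not tested. The replicate numbers did not pair the rats: same-numbered deviations correlated at -0.05 to 0.18, 1 of 5 controls correlated best with its own number, and with the replicate block 0 clusters passed, 6 skeleton genes were higher and the median was 0.20. Averaging over clusters was not run, since each skeleton gene had 1 cluster. Ank1 and Dmtn lay near background, where differences may be compressed, which was not tested.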
